A study of Mus musculus with 12 samples.

Results

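The 6 genes described here encode secreted signals, hormones or growth factors that cells release under stress: Gdf15, Fgf21, Stc1, Stc2, Vegfa and Adm. They were taken by gene symbol from the deposited comparison tables, which listed all 6 at both times among 29030 genes listed at either. The cells were primary fibroblasts, which build the matrix of the heart, isolated from cardiac tissue of C57BL/6 mice and cultured in medium with serum. They received ethanol as vehicle or 6 µM MCB-613-10-1, a derivative of MCB-613, and RNA was sequenced after 4 h or 24 h. Each of the 4 groups held 3 libraries, and each time had its own vehicle group. The series was designed to find signals from fibroblasts behind the anti-fibrotic action of the compound. No label ties the libraries of a group to separate cultures or animals, so p-values measure the spread between these samples and no more, and that spread may be technical.

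GDF15 and FGF21 are hormones of metabolic and cellular stress. Both genes are known targets of ATF4, the transcription factor of the integrated stress response, in which phosphorylation of eIF2alpha slows translation. VEGFA drives the growth of blood vessels and adrenomedullin (encoded by Adm) widens vessels and tightens their walls, and both genes are known targets of the hypoxia-inducible factors (HIF). The stanniocalcins STC1 and STC2 are secreted glycoproteins, and STC2 blocks PAPP-A, the protease that frees insulin-like growth factors from their binding proteins. Fibroblasts of the heart are a source of such signals to neighbouring muscle and vessel cells.

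The sequence before the transcription start is printed for Gdf15, Fgf21 and Adm, the members with the largest responses below, because ATF4, NRF2 and HIF are known to act through short motifs. The table of RefSeq promoters (GRCm38.p6) held 5 of the 6 members in 7 entries, with none for Stc1. Each line gives the 250 bases before the start on the strand of the gene, at chr8:70632457-70632706 (minus strand, the first of 2 starts) for Gdf15, chr7:45615491-45615740 (minus strand) for Fgf21 and chr7:110627407-110627656 (plus strand) for Adm. Capitals mark matches to the motifs searched.
Gdf15: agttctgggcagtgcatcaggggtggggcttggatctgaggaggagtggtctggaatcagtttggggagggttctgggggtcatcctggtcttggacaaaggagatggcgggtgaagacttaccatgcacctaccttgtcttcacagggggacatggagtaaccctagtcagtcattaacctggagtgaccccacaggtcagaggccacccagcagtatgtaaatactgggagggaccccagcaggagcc
Fgf21: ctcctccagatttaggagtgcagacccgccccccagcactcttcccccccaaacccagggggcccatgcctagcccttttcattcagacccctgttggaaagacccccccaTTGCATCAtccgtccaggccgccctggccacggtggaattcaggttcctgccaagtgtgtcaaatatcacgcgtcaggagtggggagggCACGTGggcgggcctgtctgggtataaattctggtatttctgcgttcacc
Adm: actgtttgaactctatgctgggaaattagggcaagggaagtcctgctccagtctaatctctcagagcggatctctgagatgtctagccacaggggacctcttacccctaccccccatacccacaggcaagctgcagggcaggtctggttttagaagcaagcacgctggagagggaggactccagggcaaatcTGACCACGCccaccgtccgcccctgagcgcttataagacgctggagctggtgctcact
The motifs were searched on both strands. They were TGATGNAA, the composite element of ATF4 with C/EBP factors, TGACNNNGC, the core of the antioxidant response element bound by NRF2, ACGTG, the core of the hypoxia response element, and GAANNTTC, a heat shock element core. In Fgf21 the composite ATF4 element lay on the other strand from 139 to 132 bases before the start, and the hypoxia core lay on both strands in overlapping positions from 50 to 45 bases before it. In Adm the antioxidant core lay on the strand of the gene from 58 to 50 bases before the start. The first Gdf15 start had 0 matches, and its second start held the hypoxia core on both strands, overlapping, from 83 to 78 bases before it. The promoter of Stc2 and the first start of Vegfa had 0 matches, and the second start of Vegfa held 1 hypoxia core from 211 to 207 bases before it. Of all 32851 RefSeq promoters, 3.45% held the composite ATF4 element, 10.2% the antioxidant core, 16.6% the hypoxia core and 6.69% the heat shock core in a window of this length. A match describes letters only and no binding was measured.

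The total count of a library lay between 26869195 and 31596784 at 4 h and between 25016754 and 34877090 at 24 h. Within a group, log2 CPM (counts scaled to a common library size) correlated across genes with r from 0.986 to 0.992. Vehicle replicate 1 at 4 h stood apart from the other vehicle libraries of its time, with r of 0.986 to each of them where they reached 0.992 with each other. All 10 fibroblast markers had a mean of at least 1 FPKM (fragments scaled to gene length and library size) in every group. Their summed level was 1379 to 1886 FPKM in the vehicle libraries at 24 h and 564 to 621 in the treated ones. That sum was mostly collagen, with mean FPKM of 837 for Col1a1, 303 for Col3a1 and 266 for Col1a2 in vehicle at 24 h. At an edgeR adjusted p under 0.05, 8 of the 10 fell at 24 h, 1 rose and 1 did not pass. Among all genes 36.7% were higher and 38% lower. The marker that rose was Ddr2, from 27.5 to 42.1 FPKM. Summed macrophage and leukocyte markers, with Cd3e at 0 throughout, ran from 235 to 281 FPKM in vehicle and from 87.1 to 103 in treated libraries at 24 h, and from 62.3 to 69.0 and from 41.9 to 56.3 at 4 h. Lyz2 made up most of these sums, at 196 FPKM in vehicle and 70.1 under treatment at 24 h. Of the 7 tested at 24 h, 6 fell at the same threshold and 1 rose, Csf1r, from 4.13 to 4.79 FPKM. With scaling by library totals 0 of these 7 rose and 6 fell. The part of these shifts in the results below was not tested, and in bulk RNA fewer cells of a type and less RNA per cell cannot be told apart. At 24 h, scaling by library totals in place of TMM (trimmed mean of M values) moved the median log2 fold change of all genes from -0.02 to -0.21 and the share of higher among called genes from 49.1% to 39%. At 4 h that share went from 48.2% to 34.5%.

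Treatment raised Gdf15 and Adm at 4 h. At 24 h it raised Gdf15, Fgf21, Vegfa and Stc2 and lowered Adm. Of the 5 members tested at 4 h, 2 rose and 0 fell at an edgeR adjusted p under 0.05, where 7.16% of all 15336 genes tested were called (3.45% higher and 3.71% lower). Without vehicle replicate 1, Fgf21 and Stc2 were called too, so that 4 of 6 rose at 4 h, where 11.2% of all genes were called in that fit. Of the 6 members tested at 24 h, 4 rose and 1 fell, where 74.7% of 15575 genes were called (36.7% higher and 38% lower). A share of 5 in 6 lies near that background and is no result about the members.

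Gdf15 (ENSMUSG00000038508, GRCm39 chromosome 8, 71082043 to 71085106, minus strand), a distant member of the TGF-beta family that lowers appetite, was at 40.1, 59.6 and 48.1 CPM in the vehicle libraries at 4 h and at 140, 159 and 153 CPM in the treated ones. After 24 h it was at 38.1, 41.1 and 35.1 CPM in vehicle and at 272, 259 and 321 CPM under treatment. All treated libraries lay above all vehicle libraries at both times, and those of 24 h above those of 4 h. Expression rose 3.06-fold at 4 h (log2 fold change 1.61, SE 0.13, edgeR adjusted p = 2.77e-05) and 7.42-fold at 24 h (2.89, SE 0.09, adjusted p = 1.94e-09). The response was larger at 24 h by 1.28 (SE 0.17, adjusted p = 1.30e-05) in the interaction fitted over 12 libraries. Between the times the treated level rose 1.89-fold (log2 0.92, adjusted p = 6.57e-06).

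Fgf21 (ENSMUSG00000030827, GRCm39 chromosome 7, 45263310 to 45264914, minus strand), best known as a liver hormone of fasting, was rare in these cells. It had 14, 3 and 3 counts in the vehicle libraries and 16, 20 and 17 in the treated ones at 4 h. At 24 h it had 0 counts in each vehicle library and 39, 43 and 28 in the treated ones. The groups did not overlap at either time, although vehicle replicate 1 at 4 h came within 2 counts of the lowest treated library. At 4 h the log2 fold change was 1.5 (SE 0.52) and did not pass (edgeR adjusted p = 0.106). It was 2.51 (adjusted p = 0.0118) without vehicle replicate 1. At 24 h Fgf21 was at least 48.0-fold higher under treatment (adjusted p = 6.16e-08), with 110 counts set against a floor of 3 counts over the vehicle group, which is 0.0298 CPM and covers counting error only. Without vehicle replicate 1, 2 or 3 at 24 h the same floor gave at least 30.3-fold, 33.5-fold and 32.1-fold. At both times Fgf21 passed the filter of low counts only through the treated libraries. Its p-values and its place among the calls are therefore a description. Even at its highest, Fgf21 reached 1.42 ± 0.19 FPKM (SD, n = 3).

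**Figure D1:**
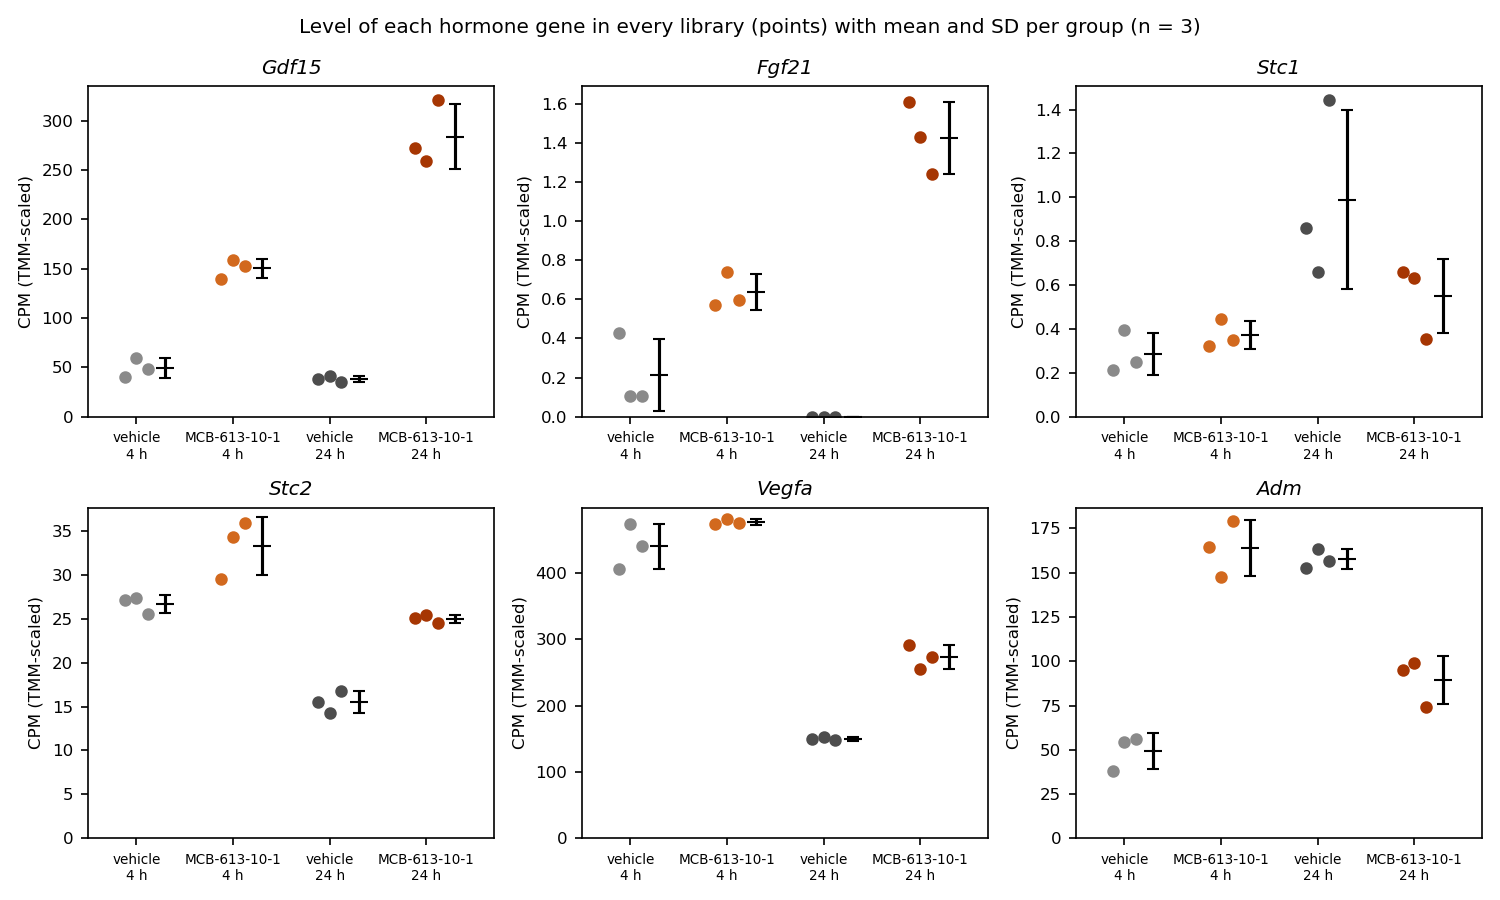
TMM-scaled CPM (vertical axis, from 0) of each hormone gene in the 12 libraries, by group (horizontal axis), with points for libraries and bars for mean ± SD (n = 3). Gdf15 was highest in the treated libraries at 24 h (259 to 321 CPM), while Adm was lowest in the vehicle libraries at 4 h (37.8 to 56.2 CPM).

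Vegfa (ENSMUSG00000023951, GRCm39 chromosome 17, 46327919 to 46343295, minus strand), the main growth factor for endothelial cells, was at 406, 474 and 441 CPM in vehicle and at 474, 482 and 476 CPM under treatment at 4 h. These groups were separated by less than 0.1 CPM, and the log2 fold change of 0.12 (SE 0.08) did not pass (edgeR adjusted p = 0.433). At 24 h the vehicle libraries had 150, 153 and 148 CPM and the treated ones 292, 256 and 273 CPM. All treated libraries lay above vehicle, a rise of 1.81-fold (log2 0.86, SE 0.05, edgeR adjusted p = 8.71e-12). The treated level at 24 h was nonetheless below either group at 4 h. Vegfa fell 2.93-fold between the vehicle groups (log2 -1.55, adjusted p = 1.55e-11) and 1.75-fold between the treated groups (-0.80, adjusted p = 1.03e-08).

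Adm (ENSMUSG00000030790, GRCm39 chromosome 7, 110226868 to 110229027, plus strand), which encodes the precursor of adrenomedullin, was at 37.8, 54.6 and 56.2 CPM in vehicle and at 165, 148 and 179 CPM under treatment at 4 h. At 24 h it was at 153, 164 and 157 CPM in vehicle and at 95.0, 99.0 and 74.2 CPM under treatment. The treated libraries thus lay above all vehicle libraries at 4 h and below all of them at 24 h. Treatment raised Adm 3.31-fold at 4 h (log2 1.73, SE 0.14, edgeR adjusted p = 3.70e-05) and lowered it 1.77-fold at 24 h (-0.82, SE 0.11, adjusted p = 0.000303). The interaction was -2.54 (SE 0.20, adjusted p = 2.28e-07). Both groups moved between the times, the vehicle level up 3.18-fold (1.67, adjusted p = 6.06e-07) and the treated level down 1.83-fold (-0.87, adjusted p = 0.000112). The vehicle level at 24 h overlapped the treated level at 4 h. The span of the annotated lncRNA Gm28863 covers all 2160 bases of Adm on the opposite strand, but its listed gene length is 431 bases beside 1619 for Adm. It was at 0 to 0.584 FPKM, beside group means of 29.8 to 99.6 FPKM for Adm. Since no strand setting is stated, reads from bases that the pair shares cannot be told apart.

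Stc2 (ENSMUSG00000020303, GRCm39 chromosome 11, 31307307 to 31320074, minus strand) was at 27.2, 27.4 and 25.5 CPM in vehicle and at 29.6, 34.3 and 35.9 CPM under treatment at 4 h. At 24 h it was at 15.6, 14.2 and 16.8 CPM in vehicle and at 25.1, 25.4 and 24.5 CPM under treatment. Treated libraries lay above vehicle at both times. The rise of 1.60-fold at 24 h passed (log2 0.68, SE 0.08, edgeR adjusted p = 5.96e-07), and the 4 h value of 0.32 (SE 0.10, adjusted p = 0.087) did not. At 4 h Stc2 passed without vehicle replicate 1 (0.33, adjusted p = 0.0477) and with all 12 libraries in the fit (0.32, adjusted p = 0.0268). The interaction was 0.37 (SE 0.13, adjusted p = 0.0235), a call that ended with library totals (0.23, adjusted p = 0.159).

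Stc1 (ENSMUSG00000014813, GRCm39 chromosome 14, 69266687 to 69279253, plus strand), the other stanniocalcin, was near the limit of detection. It had 7, 11 and 7 counts in vehicle and 9, 12 and 10 under treatment at 4 h, too few for the filter of low counts, so it was not tested there. At 24 h it had 32, 20 and 48 counts in vehicle and 16, 19 and 8 under treatment, or 0.862, 0.659 and 1.44 against 0.660, 0.630 and 0.354 CPM. The groups overlapped at both times. At 24 h its log2 fold change of -0.84 (SE 0.41) did not pass (edgeR adjusted p = 0.0693), and did so without vehicle replicate 2 (-1.06, adjusted p = 0.0355) and with library totals (-1.03, adjusted p = 0.0299). Its vehicle level rose 3.45-fold between the times (1.79, adjusted p = 0.00162). The lncRNA Gm41192, which overlaps 415 bases of Stc1 on the opposite strand, was listed at 0 FPKM in all 12 libraries.

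**Figure D2:**
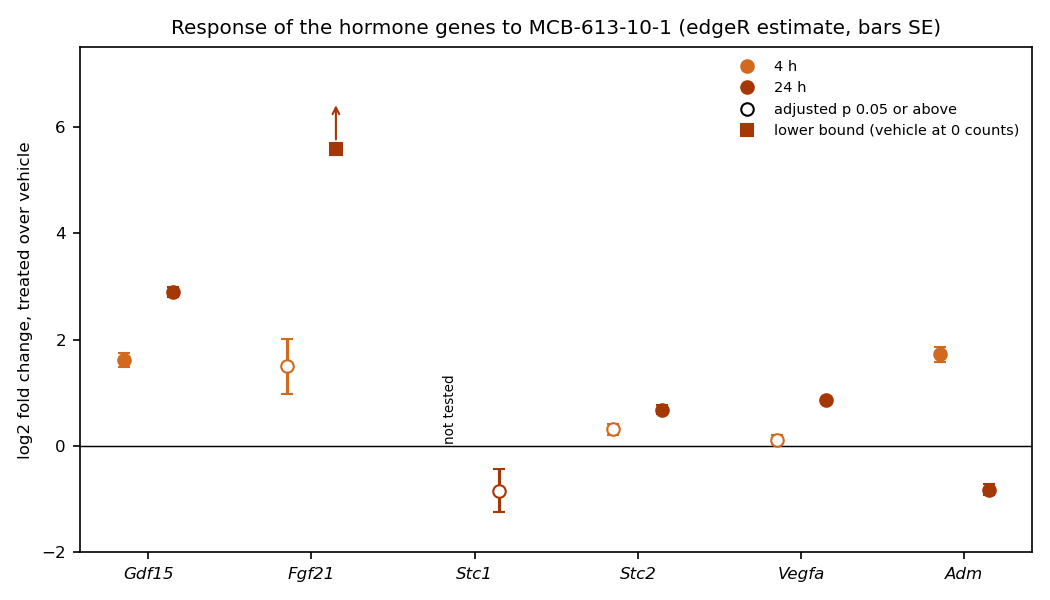
Log2 fold change of treated over vehicle (vertical axis) for the 6 hormone genes at 4 h and 24 h, with bars for the SE. Adm goes from 1.73 to -0.82, and the Fgf21 arrow at 24 h marks a lower bound of 48.0-fold.

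In the authors' deposited table the log2 fold changes were 1.62 for Gdf15 (adjusted p = 1.48e-30) and 1.73 for Adm (adjusted p = 9.03e-32) at 4 h. For Stc2, Fgf21 and Stc1 at 4 h the authors' deposited table gave adjusted p of 0.0722, 1 and 1. At 24 h the authors' deposited table gave 2.89 for Gdf15, 8.02 for Fgf21, 0.68 for Stc2, 0.86 for Vegfa and -0.82 for Adm, each with an adjusted p under 0.05, and -0.85 for Stc1 (adjusted p = 0.19).

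Responses at 24 h and 4 h differed for 5 of 6 members, where 53.8% of 16341 genes were called for that difference (26.7% higher and 27.1% lower). Gdf15, Fgf21, Stc2 and Vegfa were higher and Adm lower in it. Fgf21, with vehicle at 0, had a fitted interaction of 6.88 (edgeR adjusted p = 0.000188), a value that depends on the prior count and is no bound. That of Vegfa was 0.75 (SE 0.10, adjusted p = 3.33e-06) and that of Stc1 -1.22 (SE 0.62, adjusted p = 0.108).

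The levels of the hormones differed between the 4 h and 24 h libraries as well. Between the vehicle groups all 6 members were called, 2 higher and 4 lower at 24 h, where 54.3% of 16341 genes were called (27.4% higher and 27% lower). Beside Vegfa, Adm and Stc1, Stc2 fell 1.72-fold (log2 -0.78, edgeR adjusted p = 1.48e-06) and Fgf21 went from 20 counts to 0, at least 7.58-fold lower (adjusted p = 0.000687). Of those 20 counts, 14 came from vehicle replicate 1, and the bound was 3.61-fold without it (adjusted p = 0.00506). Without vehicle replicate 1 or 3 at 24 h the bound was 4.79-fold and 5.08-fold. Gdf15 fell by 0.37 on the log2 scale (adjusted p = 0.0188), although its vehicle groups overlapped, and that call ended without vehicle replicate 2 at 4 h (adjusted p = 0.106) or without vehicle replicate 1 or 3 at 24 h (adjusted p = 0.0505 and 0.077). Between the treated groups 5 members were called, 2 higher and 3 lower, where 61.9% of genes were called (30% higher and 31.9% lower). Fgf21 rose by 1.16 there (adjusted p = 0.0224), a call that ended without treated replicate 1 or 3 at 4 h or 1 or 2 at 24 h (adjusted p from 0.0571 to 0.079). Stc2 fell by 0.41 (adjusted p = 0.000748), and Stc1 did not pass (0.57, adjusted p = 0.28). These comparisons share libraries with the responses. Group names in the 24 h table begin with letters that are absent from the 4 h table and unexplained by the labels, so a difference between the sets beyond time cannot be told apart from time.

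The order of the levels differed by gene. Gdf15 and Fgf21 were highest in the treated cells at 24 h, then in the treated cells at 4 h. Vegfa and Stc2 followed another order, with treated at 4 h, vehicle at 4 h, treated at 24 h and vehicle at 24 h from high to low. For Adm the treated cells at 4 h and the vehicle cells at 24 h led and overlapped, then came treated at 24 h and vehicle at 4 h. Groups were ordered by their means, and neighbours overlapped for both Gdf15 vehicle groups, that Adm pair and every neighbour of Stc1. Other neighbours did not overlap. For Vegfa at 4 h the lowest treated library was at 474.02 CPM and the highest vehicle library at 473.95 (edgeR adjusted p = 0.433). How often all genes separate in this way was not counted, so the orders are a description only.

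Compared per length in FPKM, Vegfa led in both groups at 4 h, Adm in vehicle at 24 h and Gdf15 in treated cells at 24 h. Vegfa made up 62.3% ± 2.45 (SD, n = 3) of the summed FPKM of the 6 genes in vehicle at 4 h, and Adm 62.3% ± 0.654 in vehicle at 24 h. In treated cells at 4 h Vegfa (37.0%), Adm (33.6%) and Gdf15 (27.0%) shared the sum, and at 24 h Gdf15 alone held 54.9% ± 4.40. Fgf21 and Stc1 together with Stc2 stayed minor, Stc2 being the largest of them at 3.14% ± 0.402 in vehicle at 4 h. The sum was 161 ± 18.2 FPKM in vehicle and 296 ± 9.98 in treated libraries at 4 h, and 149 ± 4.32 and 264 ± 9.96 at 24 h.

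**Figure D3:**
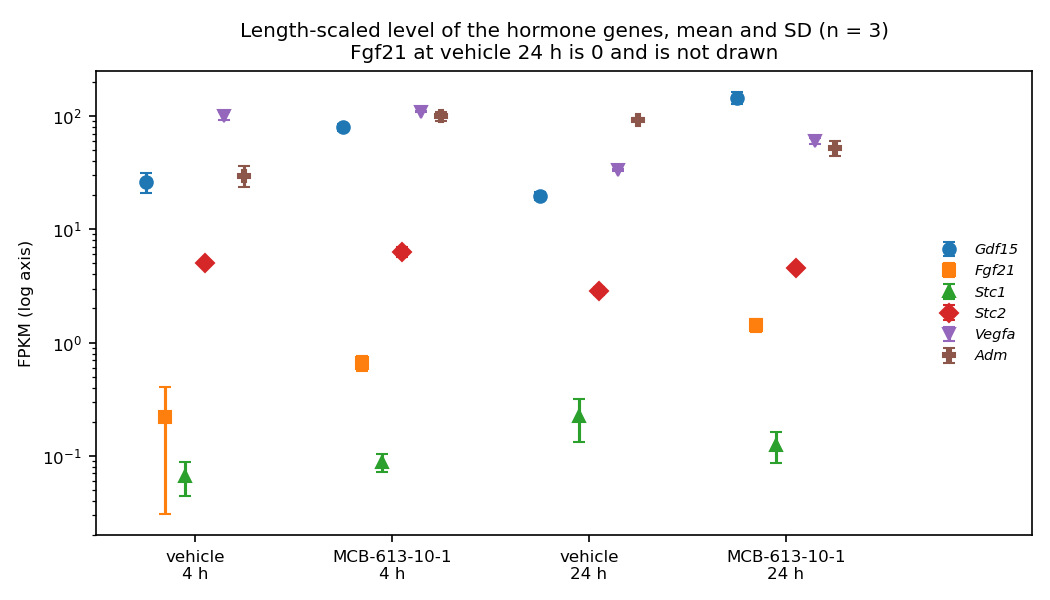
Mean ± SD (n = 3) of deposited FPKM (vertical log axis) of the 6 hormone genes by group (horizontal axis). Vegfa, Adm and Gdf15 each lead in at least 1 group, and Stc1 stays below 0.33 FPKM in every library.

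Over the 12 libraries the members fell into different patterns, given as a description since the points share 4 groups and their scaling. Pearson r of log2 CPM was 0.931 between Stc2 and Vegfa, 0.904 between Gdf15 and Fgf21, 0.103 between Gdf15 and Adm and -0.816 between Stc1 and Vegfa. Among 11000 other protein-coding genes with at least 1 FPKM in a group, 5031439G07Rik (0.990), Osgin1 (0.990), an oxidative stress gene, and Trib3 (0.989), a pseudokinase gene induced by ATF4, were most like Gdf15. Osgin1 went from 19.4 ± 5.38 to 147 ± 7.48 CPM at 4 h and from 19.1 ± 0.72 to 336 ± 21.5 CPM at 24 h. Kif2a (0.994), Slc38a2 (0.992), an amino acid transporter gene, and Fnip2 (0.990) were most like Fgf21. Crct1 (0.990) and Plk2 (0.989) were among those most like Vegfa, and Smad1, Ino80 and Map1b (0.975, 0.975 and 0.974) most like Stc2. Adm had less close neighbours, Dlg5 (0.960), Ptgir (0.903), the prostacyclin receptor gene, and Fkbp4 (0.889), a cochaperone gene. For Stc1, over 11001 genes, they were Fbln7 (0.943), Arap1 (0.935) and Tmem205 (0.922). All correlations of Fgf21 and Stc1 rest on low counts. For Fgf21 the vehicle values at 24 h, at 0 counts, are set by the prior count and the library size.

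Among receptors and binding partners of the hormones 12 of 14 tested were called at 24 h, where 74.7% of all genes were. Of 17 listed, 15 were tested at 4 h and 0 were called by edgeR, DESeq2 or limma, with 3 at an unadjusted p under 0.05 (Ackr3, Calcrl and Flt1) and a median log2 fold change of -0.05 beside -0.01 over all genes. Among all genes edgeR called 7.16% at 4 h. The largest log2 fold change at 4 h was that of Ackr3, the scavenger receptor that binds adrenomedullin, at -0.52 (SE 0.17, adjusted p = 0.0849), called with the replicate block (adjusted p = 0.0443) and without vehicle replicate 2 (adjusted p = 0.0499). At 24 h 4 rose and 8 fell, beside 36.7% higher and 38% lower among all genes, with a median of -0.52 beside -0.02 over all genes. With library totals 2 rose and 8 fell. In the difference between the responses 3 of 15 were higher and 7 lower, beside 26.7% higher and 27.1% lower among all genes. Among those lower was Ramp1 (-5.78, edgeR adjusted p = 0.00334), which had 0 counts in the treated libraries at 24 h.

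The receptors of GDF15 and FGF21 were sparse or uneven. Gfral, the receptor of GDF15, was outside the comparison tables and reached at most 0.0202 FPKM in any library, and its partner Ret fell by 0.61 at 24 h (edgeR adjusted p = 0.0473). That call ended in 8 of the alternatives, with adjusted p from 0.063 to 0.216. Klb, the beta-klotho that FGF21 needs, had 11, 8, 19 and 9 counts in the groups (vehicle and treated at 4 h, then at 24 h), and it was tested at neither time. Fgfr1, its partner, was at 31.0 ± 0.895 FPKM in vehicle and at 36.5 ± 1.35 under treatment at 24 h, a log2 fold change of 0.24 (adjusted p = 8.22e-05) that library totals took to 0.05 (adjusted p = 0.356). Fgfr2 fell by 2.25 (adjusted p = 1.87e-13), from 2.37 ± 0.145 to 0.497 ± 0.0423 FPKM, and Fgfr3 was not called (-0.19, adjusted p = 0.419).

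Among partners of VEGFA, the coreceptor neuropilin genes fell at 24 h, Nrp1 by 0.52 (edgeR adjusted p = 6.79e-08) and Nrp2 by 1.07 (adjusted p = 3.23e-12). Flt1, the decoy-like VEGFR1, fell by 0.52 (adjusted p = 0.000394), while Kdr, the main signalling receptor VEGFR2, rose by 0.77 (adjusted p = 0.000576) at a low level, from 0.337 ± 0.0378 to 0.571 ± 0.0809 FPKM. Both are markers of endothelium, whose other summed markers ran from 7.76 to 9.95 FPKM in vehicle and from 6.59 to 7.18 in treated libraries at 24 h. Of those 7 markers 2 rose (Cdh5 from 9.02 ± 0.933 to 13.6 ± 1.63 CPM and Vwf from 3.42 ± 0.407 to 9.65 ± 1.08 CPM) and 5 fell. Among all genes 74.7% were called at 24 h (36.7% higher and 38% lower). The part of these markers in the results was not tested.

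The adrenomedullin receptor is made of CALCRL and a RAMP protein. Calcrl rose by 0.30 at 24 h (edgeR adjusted p = 0.00208), a call that ended with library totals (0.10, adjusted p = 0.24). Ramp2 fell 2.82-fold (adjusted p = 1.57e-08), from 2.59 ± 0.137 to 0.912 ± 0.0771 FPKM, and Ramp3 was not called (0.90, adjusted p = 0.111). Ramp1 had 25 counts in vehicle and 0 under treatment at 24 h and was not tested there. Ackr3 fell 6.94-fold (log2 -2.80, SE 0.22, adjusted p = 5.39e-09). Of the proteases that stanniocalcins block, Pappa fell 4.97-fold (-2.31, SE 0.13, adjusted p = 6.07e-08), and Pappa2 rose by 2.61 (adjusted p = 3.81e-08) to no more than 0.305 ± 0.0318 FPKM.

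**Figure D4:**
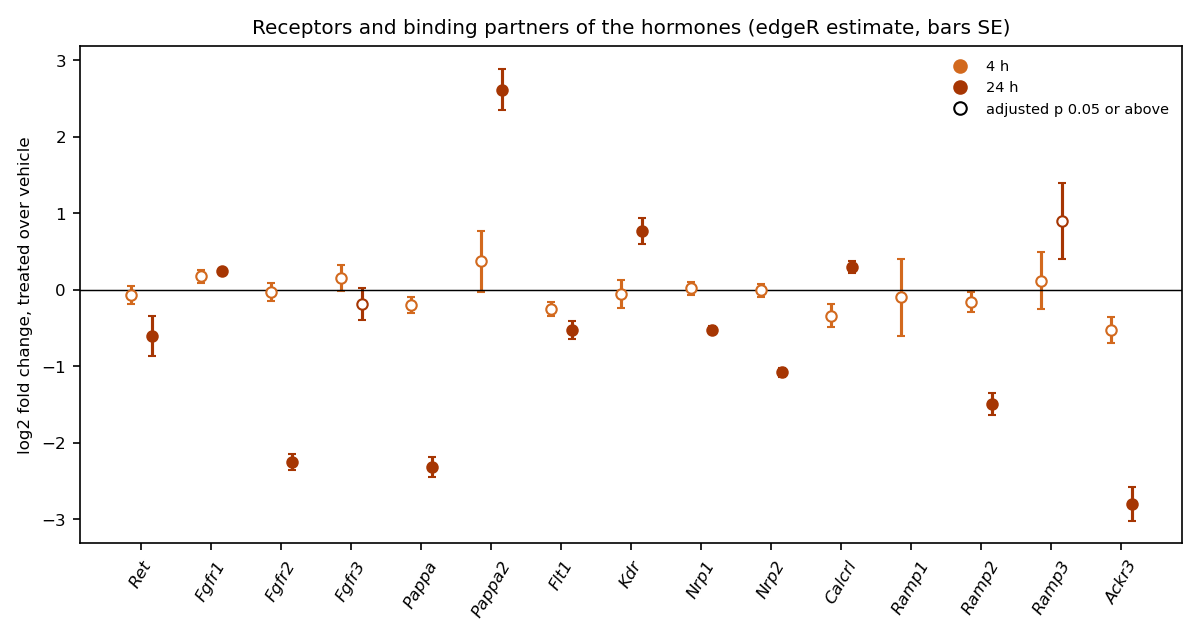
Log2 fold change of treated over vehicle (vertical axis) with its SE for 15 receptors and binding partners at 4 h and 24 h; filled points passed an edgeR adjusted p under 0.05. No point at 4 h is filled, and at 24 h the filled points run from -2.80 (Ackr3) to 2.61 (Pappa2).

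Of the 10 related hormones listed, 5 were tested at each time. At 4 h 0 were called by edgeR, DESeq2 or limma (median -0.17), with Adm2 and Vegfc at an unadjusted p under 0.05, and Adm2, which encodes intermedin, a close relative of adrenomedullin, was at 0.34. Among all genes edgeR called 7.16% at 4 h. Vegfc was called at 4 h with library totals (-0.33, adjusted p = 0.0444) and with all 12 libraries in the fit (-0.27, adjusted p = 0.0186). At 24 h 2 rose and 3 fell (median -0.16 beside -0.02 over all genes). Of all genes, 74.7% were called at 24 h (36.7% higher and 38% lower). Adm2 had 1.56, 1.48 and 1.47 CPM in vehicle and 18.2, 14.5 and 17.3 CPM under treatment. These groups lay far apart, with a rise of 11-fold (log2 3.45, SE 0.15, adjusted p = 5.58e-14) where Adm itself fell. Vegfd, a growth factor of lymph vessels, fell 5.81-fold (-2.54, adjusted p = 0.00117), from 24.6 ± 6.73 to 4.20 ± 0.696 FPKM. Vegfb fell by 0.45 (adjusted p = 4.17e-05). Placenta growth factor (Pgf) rose by 0.59 (adjusted p = 0.00909), a call that ended with library totals (0.40, adjusted p = 0.0694). Vegfc fell by 0.16 (adjusted p = 0.0375), which ended in 8 alternatives.

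Of 10 genes tested for the processing and clearance of prohormones, 1 rose and 8 fell at 24 h, beside 36.7% higher and 38% lower among all genes, with a median of -0.87 beside -0.02. Pcsk7, a convertase gene, was not called (edgeR adjusted p = 0.952), but was called lower with library totals (-0.19, adjusted p = 0.0178). In that fit 1 of the list rose and 9 fell, where 74.6% of all genes were called. Furin, the convertase that cleaves many precursors, rose by 0.42 (edgeR adjusted p = 3.34e-08). Pam, which amidates adrenomedullin into its active form, fell by 0.81 (adjusted p = 2.30e-06), from 18.8 ± 2.14 to 10.7 ± 0.362 FPKM. Igfbp4, the binding protein that PAPP-A cleaves, fell 5.53-fold (-2.47, adjusted p = 0.00351). At 4 h 1 of 10 was called, near the 7.16% called among all genes (3.45% higher and 3.71% lower). It was Mme, the protease neprilysin, at -1.15 (adjusted p = 0.042) and 0.150 FPKM. That call ended without vehicle replicate 1 (adjusted p = 0.0626), vehicle replicate 3 (0.123) or any treated replicate (0.0705, 0.130 and 0.175). It also ended with all 12 libraries in the fit and with limma (adjusted p from 0.113 to 0.162).

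Of 23 genes of ATF4 and the integrated stress response tested at 4 h, 10 rose and 0 fell, beside 3.45% higher and 3.71% lower among all genes (median 0.37 beside -0.01). With 1 library left out the number that rose ran from 7, without treated replicate 2, to 13, without vehicle replicate 1, and 0 fell each time. The share called among all genes was 3.03% and 11.2% in those fits, so it changed as well. Slc7a11, the cystine transporter gene, rose 5.31-fold (log2 2.41, edgeR adjusted p = 1.66e-06) and Chac1, which degrades glutathione, 3.32-fold (1.73, adjusted p = 2.88e-06). At 24 h 20 rose and 2 fell (median 1.49 beside -0.02 over all genes), where 74.7% of all genes were called, and with library totals 20 and 3. Atf3, a stress transcription factor gene, rose 34.2-fold (5.09, adjusted p = 1.94e-21) and Chac1 22.9-fold (4.52, adjusted p = 1.20e-20). Atf4 itself was not called at 4 h (0.33, adjusted p = 0.164) and rose by 1.49 at 24 h. The list was drawn up with earlier results of these libraries known, so its direction is no independent evidence.

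HIF genes and hypoxia targets were mixed. At 4 h 1 of 19 was called, the glucose transporter gene Slc2a1 (log2 0.70, edgeR adjusted p = 0.000382), and the median was -0.02. That count lies near the share among all genes, of which 7.16% were called (3.45% higher and 3.71% lower). Without vehicle replicate 1, 2 rose (Slc2a1 and Kdm3a) and 1 fell (Egln1), where 11.2% of all genes were called in that fit. With the replicate block 2 rose (Slc2a1 and Egln2) and with all 12 libraries in the fit 4 rose (Slc2a1, Egln2, P4ha1 and P4ha2), and Egln1 fell in both, as it did with library totals. Of all genes, 12.7% were called with the block, 13.5% with all 12 libraries and 8.1% with library totals. At 24 h 10 of 20 rose and 5 fell (median 0.14), near the 74.7% called among all genes, and with library totals 9 rose and 9 fell with a median of -0.06. Ndrg1, a stress and hypoxia marker, rose 10.2-fold (3.34, adjusted p = 2.56e-12) and Slc2a1 2.89-fold (1.53, adjusted p = 1.64e-15). The members that fell were Pdk1, Epas1, Car9, Egln1 and Ldha, among them the glycolytic Ldha (-0.81) and Epas1 (-1.50), which encodes HIF-2alpha. Car9, at most 0.280 FPKM, lost its call in 5 alternatives.

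Of 10 genes of p53 and its targets, 4 rose and 0 fell at 4 h (median 0.33 beside -0.01 over all genes). Among all genes 3.45% were called higher and 3.71% lower at that time. At 24 h 6 rose and 3 fell (median 0.62 beside -0.02), and with library totals 6 rose and 4 fell. There 74.7% of all genes were called (36.7% higher and 38% lower). Gadd45a, a gene of growth arrest and DNA damage, rose 2.39-fold at 4 h (edgeR adjusted p = 0.00253) and 9.28-fold at 24 h (adjusted p = 2.62e-17). Pmaip1, which encodes the cell death protein NOXA, rose 1.58-fold (adjusted p = 0.00444) and 3.60-fold (adjusted p = 4.30e-14). Ccng1, Sesn1 and Zmat3 fell at 24 h, by 0.26, 0.56 and 0.18.

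**Figure D5:**
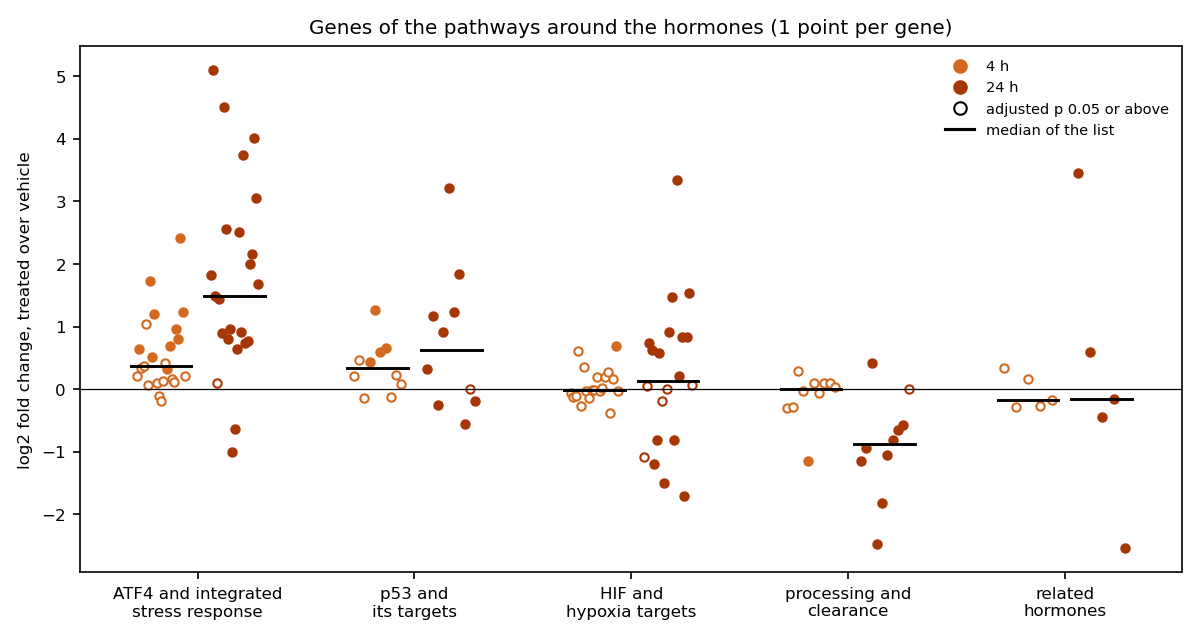
Log2 fold change of treated over vehicle (vertical axis) for the genes of 5 lists at 4 h and 24 h, with 1 point per gene, filled where the edgeR adjusted p was under 0.05, and a line at each median. The ATF4 list moves from a median of 0.37 to 1.49, and the processing and clearance list from 0.01 to -0.87.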

How the data were processed

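RNA of 12 libraries was sequenced by the submitters. Per the submitters' processing notes, which give tools without role or order, HISAT2 2.0.5, featureCounts 1.5.0-p3 and DESeq2 were used with the build GRCm39 (mm39). Strand setting and annotation are not given in the sources used here. Per the file headers, the authors deposited raw counts per gene and library, a signal made by scaling those counts with a size factor, FPKM values, and their own log2 fold change with p-value and adjusted p-value, in 1 comparison table per time (26240 genes at 4 h, 27020 at 24 h).

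Groups came from the sample titles. Raw counts were tested with edgeR 4.0.16 (limma 3.58.1, R 4.3.3): filterByExpr, TMM scaling, robust quasi-likelihood test, Benjamini-Hochberg adjustment over all genes tested, called at an adjusted p under 0.05. Each response was fitted on the 6 libraries of its time, and comparisons across times on all 12, a gene outside 1 table entering as 0 counts. The SE is the log2 fold change divided by the root of its F value. Scripts were checked on simulated data. CPM values were TMM-scaled over all 12 libraries, and FPKM served to compare genes. Log2 CPM used a prior count of 2. Alternatives were library totals, no filter, DESeq2 1.42.0, limma-trend on log2(FPKM + 1) and log2(FPKM + 0.1), all 12 libraries or only the 6 compared, a replicate block and each library left out. No same-numbered pair of libraries reached the r of 0.1 set for pairing (the highest was 0.0886 at 4 h and 0.0164 at 24 h), so no block was used.

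Members, lists and motifs were chosen with earlier results of these data known. All 6 members and all receptors were named, from each other list the 2 called genes with the largest change per time at 1 FPKM or more plus exceptions, and per member the 3 genes of highest correlation. Some genes that this rule or the lists hold are not reported here. Other list members named outside that rule were chosen after their values were seen. Promoters came from RefSeq on GRCm38.p6 and gene positions from the deposited tables on GRCm39, with no conversion between builds.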

Additional observations from a re-analysis of the deposited data

Results flagged for a closer look

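Responses at 24 h and at 4 h differed in the interaction test for 5 hormone genes. The log2 response at 24 h minus that at 4 h was 1.28 for Gdf15 (edgeR adjusted p = 1.30e-05), 6.88 for Fgf21 (adjusted p = 0.000188), 0.37 for Stc2 (adjusted p = 0.0235), 0.75 for Vegfa (adjusted p = 3.33e-06) and -2.54 for Adm (adjusted p = 2.28e-07). The Fgf21 value rests on 0 counts in vehicle at 24 h and ran from 0.82 to 7.19 over the alternatives. Of all genes tested, 53.8% were called in the same test. Adm was the member called at both times in opposite directions, with all 3 treated libraries above vehicle at 4 h and all 3 below it at 24 h.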

How the results depend on the processing

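No called value of a member reversed its sign under any alternative. Gdf15 and Adm kept their calls and directions at 4 h, at 24 h and in the difference under all alternatives run, as did Fgf21, Vegfa and Stc2 at 24 h. The count of genes called at 4 h, 1098 with edgeR, was 1953 under the replicate block and 2198 when 12 libraries were fitted together, and it ran from 443 to 1760 when 1 library was left out, the highest without vehicle replicate 1. The replicate block ended or added no call of a member, and at 4 h, not at 24 h, every library correlated best with its own number, a hint from the data and not the design. At 4 h Fgf21 passed with limma on log2(FPKM + 1) (0.45, adjusted p = 0.0495), and its log2 fold change ran from 1.19 to 2.51 with 1 library left out. Stc2 at 4 h passed with all 12 libraries (0.32) and ran from 0.26 to 0.40 with 1 left out. Stc1 at 24 h passed with library totals (-1.03) and ran from -1.06 to -0.47. The difference between times for Stc2 did not pass with library totals (0.23), without the filter (0.35, adjusted p = 0.0568) or with limma on log2(FPKM + 1) (0.25, adjusted p = 0.0584), and ran from 0.29 to 0.43 with 1 library left out, not passing without treated replicate 1 at 4 h, vehicle replicate 2 at 24 h or treated replicate 2 at 24 h. The cause of these changes was not tested. Low counts limit Fgf21 and Stc1, whose 4 h totals were 20 and 25 counts in vehicle. The log2 fold change of Fgf21 at 24 h ran from 1.27 to 8.56 over the alternatives.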

Other observations

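The 4 kinase genes that start the integrated stress response went in different directions at 24 h; they are named after their values were seen. Eif2ak1, the heme-regulated kinase, rose by 0.96 on the log2 scale and Eif2ak4, the amino acid sensor GCN2, by 0.65. Eif2ak2, the double-stranded RNA sensor PKR, fell by 1.01 and Eif2ak3, the endoplasmic reticulum sensor PERK, fell by 0.63. At 4 h the 4 genes lay from -0.19 (Eif2ak3) to 0.13 (Eif2ak4) and 0 were called by edgeR, 0 at an unadjusted p under 0.05 and 0 by DESeq2. Of all genes, edgeR called 7.16% at 4 h and 74.7% at 24 h. The HIF hydroxylase genes were split as well at 24 h, with Hif1an (0.92) and Egln2 (0.59) higher, Egln1 lower (-0.81) and Egln3 not called (-0.19, edgeR adjusted p = 0.187, and -0.38, adjusted p = 0.0133, with library totals).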
